A study of Oryza sativa with 12 samples.

Results

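The DREB1 and DREB2 transcription factors of rice were followed here by 8 genes in leaf RNA: 6 DREB1 genes (DREB1A, DREB1B, DREB1C, DREB1E, DREB1F and DREB1G) and 2 DREB2 genes (DREB2A and DREB2B). They were taken by their gene identifiers, whatever their values, from the 35679 genes that each of 12 deposited tables lists. The 12 libraries fell into 4 groups of 3. Kitaake was a wild-type rice cultivar. OsbZIP62V plants were Kitaake plants of the line OE1 that overexpressed OsbZIP62, a bZIP transcription factor, fused to the activation module VP64. Nipponbare was the second wild-type cultivar, and osbzip62 plants were Nipponbare plants of the line C54 with a CRISPR mutation in OsbZIP62. All groups were sampled as leaves at the 4-leaf stage from seedlings kept in culture solution without stress, in a cycle of 16 h of light at 28 °C and 8 h of dark at 24 °C. Each library was a biological replicate that pooled several plants. A single line stood for each transgenic group. An effect of the construct, one of the line and a difference in growth or harvest between groups cannot be told apart. No source used here gives the hour of harvest.

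DREB proteins are AP2/ERF-type transcription factors that bind the dehydration-responsive element in the promoters of stress genes. The DREB1 genes, called CBF in Arabidopsis, are known for a fast transcriptional response to cold, and some of them respond to drought or salt. The DREB2 genes are known for responses to dehydration, salt and heat, and in Arabidopsis and rice their products are controlled after transcription as well, by protein stability or splicing. The DREB1 factors raise the RNA of protective proteins such as dehydrins when they are overproduced.

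In these unstressed leaves, 5 of the 6 DREB1 genes were more abundant in every wild-type Kitaake library than in any library of another group. This was the case for 7.04% of all genes tested in the fit of 12 libraries. The 2 DREB2 genes differed less, at 15.4 to 24.7 CPM for DREB2A and 55.6 to 81.6 CPM for DREB2B over the 12 libraries. DREB2A passed in OsbZIP62V against Kitaake only in the fit of all 12 libraries (log2 fold change 0.47, edgeR's adjusted p = 0.0495). DREB1A, DREB1B, DREB1C, DREB1E and DREB1G were lower in OsbZIP62V than in Kitaake plants, by 4.10-fold for DREB1C up to 27.6-fold for DREB1B. Of all genes tested there, 2.89% were lower. The calls of DREB1C and DREB1E were lost when some single libraries were left out. None of the 6 genes tested between osbzip62 and Nipponbare plants passed the test, where 0.422% of all genes tested did. DREB1F gave almost no reads. The plot of levels by library shows these levels for each gene.

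**Figure D1:**
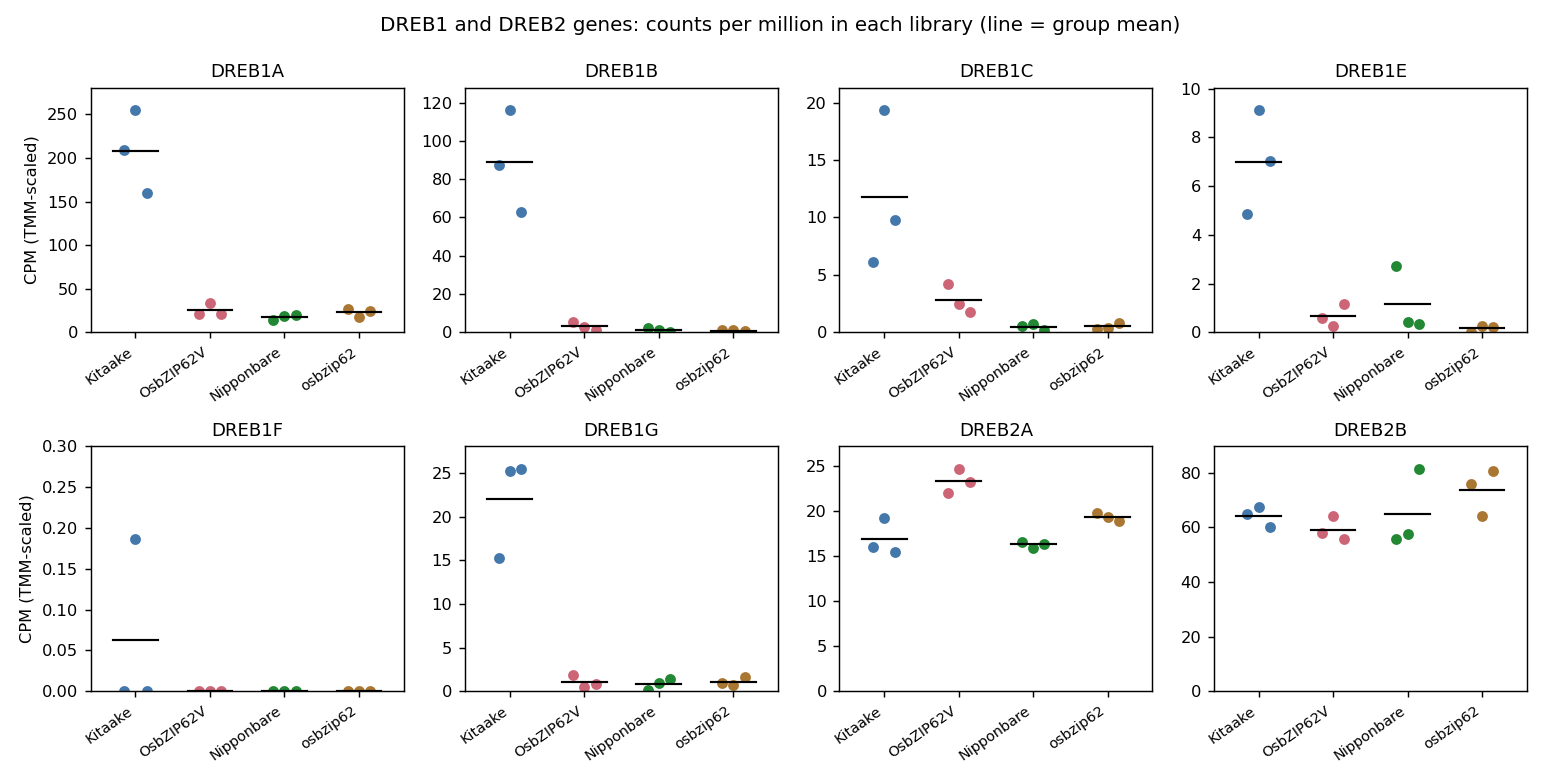
Level of each gene in CPM (TMM-scaled counts per 1000000 counts, y axis from 0, a scale per panel) in the 12 libraries, by group (x axis); points are libraries and black lines are group means of 3 libraries. In DREB1A, DREB1B, DREB1C, DREB1E and DREB1G all 3 Kitaake libraries lie above every other library, while the groups lie close together in DREB2B.

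The libraries held between 9224755 counts (Kitaake replicate 1) and 19759728 counts (Kitaake replicate 3). Levels are given as CPM, the counts of a gene per 1000000 counts of a library after TMM scaling of the totals, and a count of 3 was equal to between 0.149 and 0.340 CPM. OsbZIP62 itself, the check of the labels, was at 808 to 1173 CPM in the OsbZIP62V libraries and at 0.0995 to 0.453 CPM in the Kitaake libraries. It was at 0.340 to 0.994 CPM in osbzip62 and at 0.0684 to 0.852 CPM in Nipponbare libraries, so its RNA does not check the mutant label, and a CRISPR mutation need not lower the RNA. Replicates were closest to each other in Kitaake (Spearman correlations of 0.976 to 0.983 between libraries, across genes) and in osbzip62 (0.967 to 0.981). They were further apart in OsbZIP62V (0.889 to 0.960) and Nipponbare (0.871 to 0.940), where OsbZIP62V replicate 2 and Nipponbare replicate 3 lay towards the Kitaake libraries on the leading principal component (44.5% of the variance). The 5 leaf genes checked were all detected in each group, and their summed level was 25170 to 36535 CPM in the Kitaake and OsbZIP62V libraries and 45561 to 91859 CPM in the osbzip62 and Nipponbare libraries. The leaf list also held a chlorophyll a-b binding protein, LOC_Os01g41710, which was at 13.8 to 21.6 CPM in Kitaake, 44.1 to 2298 CPM in OsbZIP62V, 361 to 7896 CPM in Nipponbare and 361 to 2126 CPM in osbzip62. Its log2 fold change was 6.30 in OsbZIP62V against Kitaake (edgeR's adjusted p = 0.0254) and -7.93 in Kitaake against Nipponbare (adjusted p = 0.00380). Of 5 root genes, 3 had at most 3 counts over the libraries of a group, in each group. The 5 root genes summed to 17.8 to 123 CPM and 6 genes of dividing cells to 7.42 to 12.2 CPM. Nearly all of the root sum came from OS02G0745100, with means of 26.2 CPM in Kitaake, 31.3 in OsbZIP62V, 73.7 in Nipponbare and 43.4 in osbzip62. It was lower in Kitaake than in Nipponbare (log2 fold change -1.50, edgeR's adjusted p = 0.0391) and did not pass in either transgenic comparison. In bulk leaves, fewer cells of a type and less RNA per cell cannot be told apart. The part of these differences between libraries in the results was not tested.

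OsbZIP62V and Kitaake plants were compared to see which genes differ when OsbZIP62 is overproduced as an activator. Of all 19864 genes tested, 7.43% passed (edgeR's quasi-likelihood test, Benjamini-Hochberg adjusted p under 0.05), with 4.54% higher and 2.89% lower in OsbZIP62V plants. Of the 7 DREB genes tested, 5 fell and 2 did not pass. The groups did not overlap for those 5 genes, as was the case with OsbZIP62V lower for 17.0% of all genes tested. The filter on low counts admitted DREB1E and DREB1G through the Kitaake libraries, since only 2 of the 3 OsbZIP62V libraries had at least 10 counts of either. The count of 5 is therefore an account of the members and not a test of the family.

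DREB1A (OS09G0522200), a cold-induced activator that is known to raise tolerance to cold and drought when overexpressed, was the most abundant DREB gene in Kitaake. Its level was 209, 255 and 160 CPM in Kitaake replicates 1, 2 and 3, and 20.7, 33.2 and 21.4 CPM in the OsbZIP62V replicates. The lowest Kitaake library was thus far above the highest OsbZIP62V library. The group means were 208 ± 47.7 and 25.1 ± 7.01 CPM (SD, n = 3). The level fell 8.03-fold, or by 3.01 on the log2 scale (SE 0.25, edgeR's adjusted p = 0.00101). This rested on 9165 counts in Kitaake and 1418 counts in OsbZIP62V.

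DREB1B (OS09G0522000), which lies near DREB1A on chromosome 9 and is likewise known for its response to cold, had the lowest log2 fold change of all genes tested. The Kitaake libraries were at 87.5, 116 and 63.1 CPM, and the OsbZIP62V libraries at 5.44, 2.66 and 1.28 CPM. The log2 fold change was -4.79 (SE 0.49, adjusted p = 0.00267 by edgeR), or 27.6-fold lower. The spread among the OsbZIP62V libraries, 25 to 99 counts, was wide beside their mean but small beside the gap to Kitaake. In the tables, the identifiers of DREB1B and DREB1A are separated by a single other one, OS09G0522100, which no source used here pairs with a name. It was at 7.11 to 10.6 CPM in Kitaake and 0.256 to 1.17 CPM in OsbZIP62V, and was lower in OsbZIP62V with a log2 fold change of -3.57 (SE 0.47, edgeR's adjusted p = 0.00596). It is 1 of 4 further DREB1 identifiers that were looked for, of which 3 were in the tables and 2 could be tested. The other one tested was at 1.02 to 1.99 CPM in Kitaake and 1.07 to 1.38 CPM in OsbZIP62V and did not pass (log2 fold change -0.23, SE 0.37, edgeR's adjusted p = 0.744). DREB1 genes are similar to each other, and no source used here says how the counting treated reads that match more than 1 of them.

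DREB1G (OS02G0677300), a DREB1 gene known to raise drought tolerance when overexpressed, fell from 15.3, 25.2 and 25.5 CPM in Kitaake to 1.87, 0.426 and 0.818 CPM in OsbZIP62V. The OsbZIP62V values came from 34, 8 and 16 counts. The log2 fold change was -4.36 (SE 0.49, adjusted p = 0.00350 by edgeR), at position 5 from the lowest of all genes tested. With no filter on low counts the value was -4.37 (adjusted p = 0.00246).

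DREB1E (OS04G0572400), a less studied DREB1 gene on chromosome 4, was at 4.87, 9.13 and 7.01 CPM in Kitaake and at 0.604, 0.266 and 1.18 CPM in OsbZIP62V, from 11, 5 and 23 counts. The groups did not overlap, and the log2 fold change was -3.29 (SE 0.51, adjusted p = 0.0116 by edgeR). The call was lost without any one of the Kitaake replicates (adjusted p = 0.0628, 0.108 and 0.0925 without replicates 1, 2 and 3) and without OsbZIP62V replicate 1 (0.0532). It was also lost in a fit of all 12 libraries (adjusted p = 0.0511).

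DREB1C (OS06G0127100), a DREB1 gene that is known in rice for effects on growth and nitrogen use besides cold, changed least of those that fell. The Kitaake libraries were at 6.11, 19.4 and 9.80 CPM and the OsbZIP62V libraries at 4.18, 2.45 and 1.74 CPM. The lowest Kitaake library and the highest OsbZIP62V library were close together, and the Kitaake libraries were spread more widely than for the other genes. The log2 fold change was -2.04 (SE 0.48, adjusted p = 0.0424 by edgeR). The call was lost without Kitaake replicate 1, 2 or 3 (adjusted p = 0.0880, 0.194 and 0.158) and without OsbZIP62V replicate 1 or 3 (0.0637 and 0.0814).

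DREB1F (OS01G0968800), known from stress treatments of rice seedlings with salt, drought, cold and the hormone ABA, had 3 counts in Kitaake replicate 2 and none in the other libraries. No fold can be given, since every group was at or under the floor of 3 counts per library, which allows up to 0.149 to 0.340 CPM. It was not tested in any comparison.

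The 2 DREB2 genes moved little. DREB2A (OS01G0165000), the rice counterpart of a dehydration- and heat-response factor of Arabidopsis, was at 16.0, 19.2 and 15.4 CPM in Kitaake and at 22.0, 24.7 and 23.2 CPM in OsbZIP62V. The OsbZIP62V libraries were all above the Kitaake libraries, as was the case for 13.9% of all genes tested. The log2 fold change of 0.52 (SE 0.16) did not pass (adjusted p = 0.0823 by edgeR), and its 95% interval ran from 0.16 to 0.87. It passed in the fit of all 12 libraries (0.47, adjusted p = 0.0495). DREB2B (OS05G0346200), whose rice transcript is known to be spliced into an active form under stress, was at 60.1 to 67.5 CPM in Kitaake and 55.6 to 64.2 CPM in OsbZIP62V. These ranges overlapped, and the log2 fold change was -0.07 (95% interval -0.35 to 0.22, adjusted p = 0.780 by edgeR).

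Leaving out any one of the 6 libraries left DREB1A, DREB1B and DREB1G past the threshold in every case, with adjusted p-values of up to 0.0184, 0.0375 and 0.0467. The number of DREB genes that fell was then 3 to 5, and it was 5 without OsbZIP62V replicate 2. The plot of adjusted p-values by omitted library shows that, for the 5 DREB1 genes, the highest values came from fits without a Kitaake library. Without OsbZIP62V replicate 1 the log2 fold change of DREB1B was -5.45 and that of DREB1G -5.07, and without OsbZIP62V replicate 3 that of DREB1E was -3.96.

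**Figure D2:**
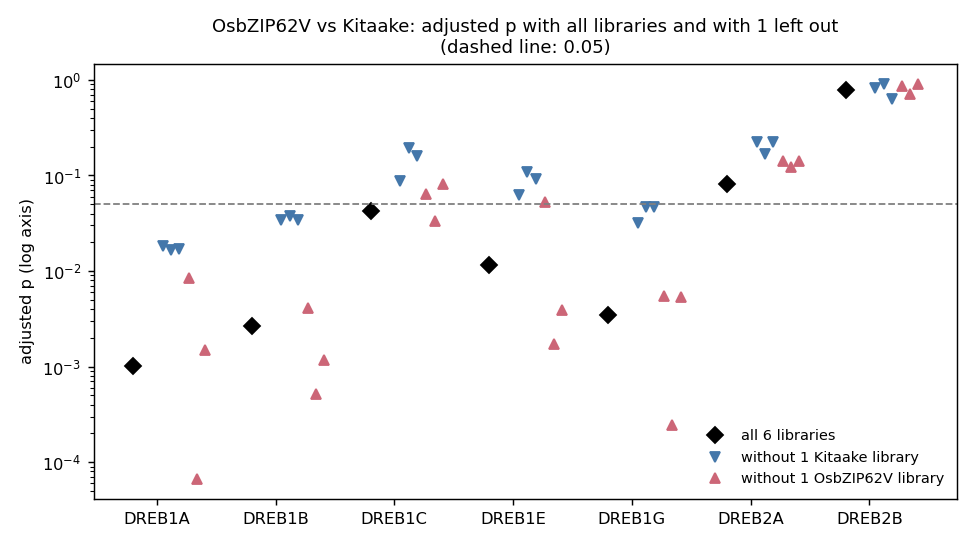
Adjusted p (y axis, log scale) of the 7 tested genes (x axis) in OsbZIP62V against Kitaake, with all 6 libraries (diamonds) and with 1 Kitaake (down triangles) or 1 OsbZIP62V library (up triangles) left out; the dashed line is 0.05. DREB1A, DREB1B and DREB1G stay below the line in all fits, DREB1C and DREB1E cross it, and DREB2A and DREB2B stay above it.

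The osbzip62 and Nipponbare plants were compared to see which genes differ when OsbZIP62 is mutated. None of the 6 DREB genes tested passed, where 0.422% of all 20398 genes tested did (edgeR, adjusted p under 0.05). None passed at an unadjusted p under 0.05 either, where 16.9% of all genes did, and none passed with DESeq2. DREB1A was at 14.3, 18.6 and 19.7 CPM in Nipponbare and at 27.0, 17.6 and 24.4 CPM in osbzip62. The osbzip62 library with the lowest level lay within the Nipponbare range, and the log2 fold change was 0.40 (95% interval -0.11 to 0.91, adjusted p = 0.397 by edgeR). DREB1B, DREB1C and DREB1G had at most 44, 15 and 29 counts in a library, and their log2 fold changes were -0.54 (95% interval -2.12 to 1.05), 0.04 (-1.52 to 1.60) and 0.43 (-1.45 to 2.31). The intervals of these 3 genes span a difference of 2-fold in either direction, which was thus not detectable with these replicates.

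DREB1E was left out of that test by the filter on low counts. It had 49, 7 and 5 counts in the Nipponbare libraries and 0, 5 and 4 counts in the osbzip62 libraries, or 2.71, 0.426 and 0.342 CPM against 0, 0.271 and 0.227 CPM. The groups did not overlap, which with osbzip62 lower was the case for 9.97% of the genes tested, and the count of 0 in osbzip62 replicate 1 allows up to 0.157 CPM. Nipponbare replicate 1 stood apart from the other replicates. DREB2A was at 16.6, 15.9 and 16.3 CPM in Nipponbare and at 19.8, 19.3 and 18.9 CPM in osbzip62. These groups did not overlap, as with osbzip62 higher for 12.8% of the genes tested, but the log2 fold change of 0.25 (95% interval -0.05 to 0.55) did not pass (adjusted p = 0.371 by edgeR). DREB2B was at 55.7 to 81.6 CPM in Nipponbare and 64.4 to 80.7 CPM in osbzip62, which overlapped (log2 fold change 0.18, adjusted p = 0.670 by edgeR).

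The study also looked for genes that moved in opposite directions in the overexpressor and the mutant. The difference between the effects, (OsbZIP62V against Kitaake) minus (osbzip62 against Nipponbare), was taken from 1 model over all 12 libraries, where 7.10% of 21878 genes passed and 3.25% were lower. The difference was negative and passed for DREB1A (-3.44, SE 0.35, adjusted p = 0.00189 by edgeR), DREB1B (-4.28, SE 0.87, adjusted p = 0.0214) and DREB1G (-4.84, SE 0.98, adjusted p = 0.0210). It did not pass for DREB1C (-2.11, adjusted p = 0.128), DREB1E (-0.56, adjusted p = 0.854, with -2.17 without Nipponbare replicate 1 and -1.27 without OsbZIP62V replicate 3), DREB2A (0.22, adjusted p = 0.450) or DREB2B (-0.29, adjusted p = 0.444). DREB1A passed without any one of the 12 libraries. Without OsbZIP62V replicate 1 the differences of DREB1B and DREB1G were -4.95 and -5.56, without Nipponbare replicate 1 that of DREB1B was -5.02 and without Nipponbare replicate 3 that of DREB1G was -5.45. DREB1B did not pass without Kitaake replicate 2, Nipponbare replicate 2 or osbzip62 replicate 1 (adjusted p of 0.0598, 0.0525 and 0.0690), and DREB1G not without Kitaake replicate 2 or 3, OsbZIP62V replicate 3 or osbzip62 replicate 1 or 3 (0.0604, 0.0548, 0.0513, 0.0557 and 0.0673).

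The wild types were compared as well, to describe the level of the genes in both cultivars. This comparison shares the 3 Kitaake libraries with the first one, so that the values are given side by side only. Cultivar and any difference in growth or harvest between the groups cannot be told apart. With 20.0% of 19749 genes past the threshold 9.51% higher and 10.4% lower in Kitaake, 5 of the 7 DREB genes tested were higher in Kitaake and 2 did not pass. The log2 fold changes were 3.56 for DREB1A (SE 0.24, adjusted p = 0.000220 by edgeR), 5.99 for DREB1B (SE 0.58, adjusted p = 0.000820), 4.52 for DREB1C (SE 0.57, adjusted p = 0.00239) and 4.81 for DREB1G (SE 0.63, adjusted p = 0.00266). The filter on low counts admitted DREB1B, DREB1C, DREB1E and DREB1G through the Kitaake libraries, since only 2, 2, 1 and 2 of the 3 Nipponbare libraries had at least 10 counts, so that the count of 5 is again only an account. In OsbZIP62V against Kitaake, DREB1A, DREB1B, DREB1C and DREB1G gave -3.01, -4.79, -2.04 and -4.36. DREB1E was higher in Kitaake by 2.56 on the log2 scale (SE 0.72, adjusted p = 0.0430 by edgeR), and its call was lost with no filter on low counts (0.0504) and without any one Kitaake replicate or Nipponbare replicate 2 (0.106 to 0.166). Without Nipponbare replicate 1 its log2 fold change was 4.16 and that of DREB1B 6.73, and without Nipponbare replicate 3 that of DREB1G was 5.45. In each of the 5 genes the Kitaake libraries were all above the Nipponbare libraries, as was the case for 19.6% of all genes tested. OS09G0522100 was also higher in Kitaake, by 4.75 on the log2 scale (SE 0.50, adjusted p = 0.00116), and the other further DREB1 identifier tested did not pass (2.14, SE 0.66). DREB2A (0.04, 95% interval -0.34 to 0.42) and DREB2B (-0.02, -0.45 to 0.41) did not pass. The plot of log2 fold changes sets the 3 pairs of groups side by side.

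**Figure D3:**
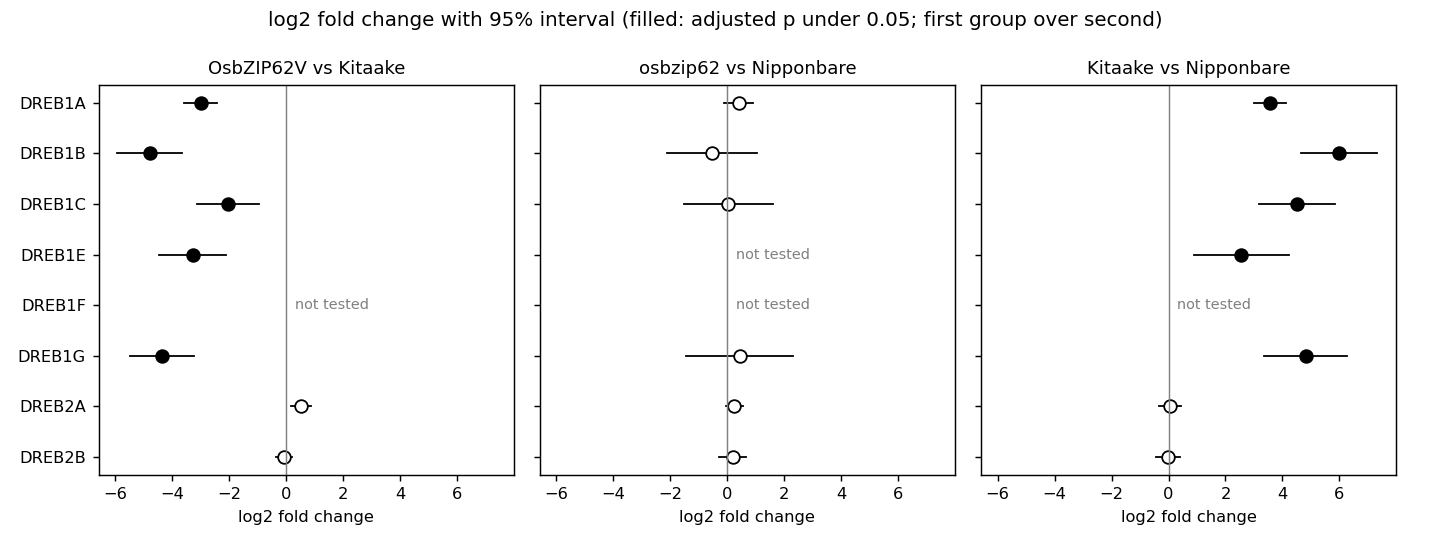
Log2 fold change (x axis) of each gene (y axis) in 3 comparisons, as first group over second, with 95% intervals from the edgeR fit; filled points have an adjusted p under 0.05. The 5 DREB1 genes tested lie at -2.04 or below in OsbZIP62V against Kitaake and at 2.56 or above in Kitaake against Nipponbare. In osbzip62 against Nipponbare no point is filled, and the points lie between -0.54 and 0.43. The intervals of DREB1B, DREB1C and DREB1G are wide there, and DREB1E and DREB1F were not tested.

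By group, the order of levels was Kitaake first for each of the 5 DREB1 genes, with all 3 Kitaake libraries above every other library, as was the case for 7.04% of all genes tested in the fit of 12 libraries. Below Kitaake the order changed from gene to gene. The OsbZIP62V libraries were above all Nipponbare libraries for DREB1A (20.7 to 33.2 against 14.3 to 19.7 CPM) and DREB1C (1.74 to 4.18 against 0.205 to 0.730 CPM), as was the case for 11.3% of the 21878 genes tested in the fit of all libraries. They overlapped the Nipponbare libraries for DREB1B, DREB1E and DREB1G. By mean, DREB2A was highest in OsbZIP62V (23.3 CPM), then osbzip62 (19.3 CPM), Kitaake (16.9 CPM) and Nipponbare (16.3 CPM). For DREB2A the OsbZIP62V libraries were above all others, and the Kitaake libraries overlapped both osbzip62 and Nipponbare. The share of all genes with OsbZIP62V above all others was not computed. OsbZIP62V was above Kitaake alone for 13.9% and above Nipponbare alone for 11.3% of the genes tested. For DREB2B the OsbZIP62V libraries (55.6 to 64.2 CPM) lay just below the osbzip62 libraries (64.4 to 80.7 CPM). The share of all genes for which this held was not computed. The other pairs of groups overlapped for DREB2B, and its means were between 59.2 and 73.6 CPM.

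Levels of different genes were compared per length, as the deposited RPKM, which rest on gene lengths of 442 (DREB1B) to 4822 (DREB2A) nucleotides recovered from the files. In Kitaake, DREB1A (219 RPKM) and DREB1B (195 RPKM) led, with 99.0% and 98.9% of the genes that had a value below them. DREB2B (18.8 RPKM), DREB1G (16.9 RPKM), DREB1C (14.9 RPKM) and DREB1E (10.3 RPKM) followed at a distance. DREB1A and DREB1B overlapped between libraries, although DREB1A was above DREB1B within each Kitaake library. DREB2A was at 3.40 RPKM. In Nipponbare, DREB2B (17.9 RPKM) and DREB1A (17.4 RPKM) led and overlapped, and no other gene was above 3.14 RPKM.

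The summed DREB1 level was 366 to 568 RPKM in the Kitaake libraries. It was 37.9 to 47.5 RPKM in OsbZIP62V, 19.3 to 27.7 RPKM in Nipponbare and 25.0 to 33.9 RPKM in osbzip62. The summed DREB2 level ran only from 19.1 to 28.1 RPKM over all 12 libraries. DREB1 RNA was thus 16.9 to 24.6 times as abundant per length as DREB2 RNA in the Kitaake libraries, and 0.858 to 1.94 times in the others. The share of each gene in the DREB1 sum is given as a description. DREB1A took 48.2% ± 1.95 of it in Kitaake and 68.8% ± 14.0 in OsbZIP62V, 76.1% ± 14.9 in Nipponbare and 86.2% ± 3.32 in osbzip62 (SD, n = 3). DREB1B took 42.4% ± 2.40 in Kitaake and 17.1% ± 10.3 in OsbZIP62V. The DREB1A share of OsbZIP62V replicate 1 (52.8%) was close to the highest share in Kitaake (50.2%). With 3 libraries against 3, an exact two-sided permutation test of such a share cannot go below p = 0.1, so these shares were not tested. The plot of summed RPKM shows the make-up of each library.

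**Figure D4:**
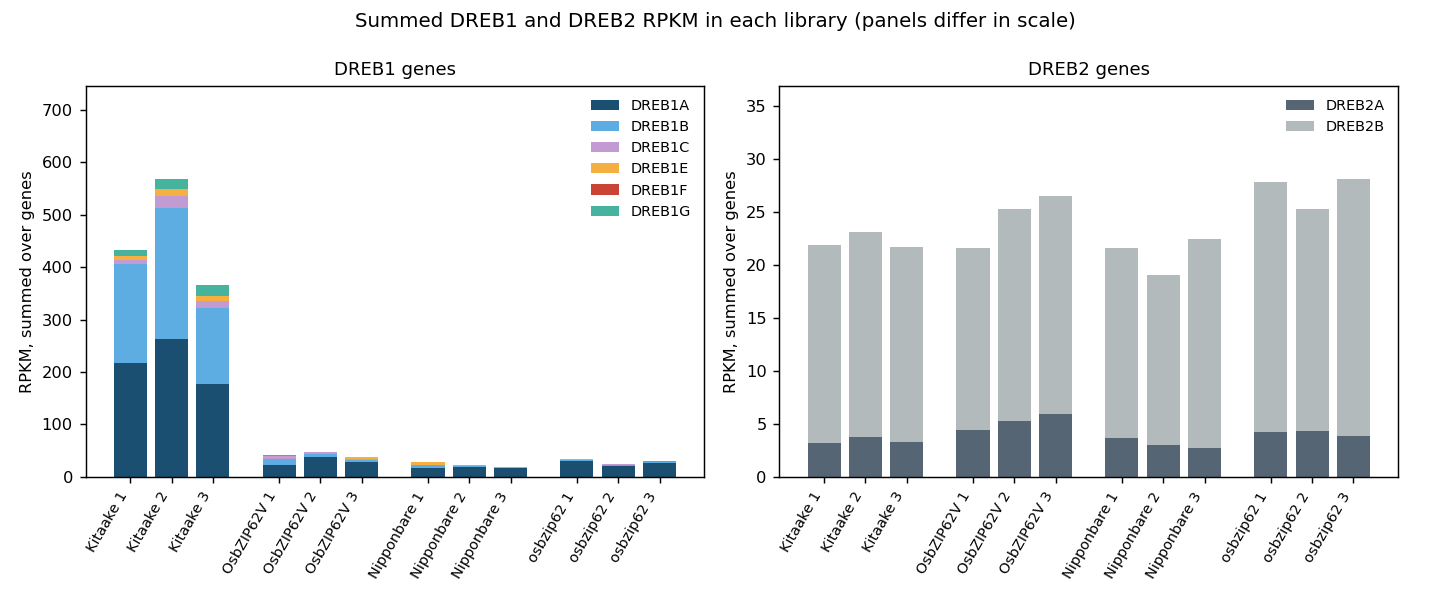
RPKM summed over the 6 DREB1 genes (left) and the 2 DREB2 genes (right) in each of the 12 libraries (x axis), stacked by gene; the y axes start at 0 and differ in scale. The Kitaake bars of DREB1 reach 366 to 568 RPKM and no other bar passes 47.5 RPKM, while the DREB2 bars lie between 19.1 and 28.1 RPKM.

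Other genes of the pathway were counted by lists. Of 8 genes of cold signalling upstream of DREB1, 1 was higher and 1 lower in OsbZIP62V than in Kitaake, with a median log2 fold change of -0.18 beside 0.02 over all genes tested, of which 4.54% were higher and 2.89% lower. Of 10 clock genes, none was higher and 1 was lower (median -0.03), and between the wild types 2 were higher and 2 lower in Kitaake. Of the 8 cold signalling genes, 2 were higher and 1 lower in Kitaake than in Nipponbare, beside 9.51% of all genes higher and 10.4% lower. The cold signalling gene lower in OsbZIP62V, OS03G0285800 (log2 fold change -1.57), was higher in Kitaake than in Nipponbare (2.74). The one higher in OsbZIP62V, OS03G0309200 (0.64), was lower in Kitaake than in Nipponbare (-0.69). The part of the time of day in the DREB1 levels was not tested. Neither list had a gene past the threshold in osbzip62 against Nipponbare, where 0.422% of all genes tested passed.

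Of 12 stress proteins of the kind that DREB factors are known to induce, 8 were tested in OsbZIP62V against Kitaake. Of these, 4 rose, none fell and 4 did not pass, beside 4.54% of all genes that rose and 2.89% that fell. For 3 of those that rose the Kitaake libraries were near 0, and the filter on low counts admitted them through the OsbZIP62V libraries, so that the count is partly set by the filter. The 4 that rose could be named because the study's own lists of changed genes hold them, so that their direction is not independent evidence. LTI6A, a small hydrophobic membrane protein known from cold-treated rice (LOC_Os07g44180), went from 25.9 to 32.7 CPM in Kitaake to 61.3 to 144 CPM in OsbZIP62V (log2 fold change 1.98, SE 0.33, adjusted p = 0.0144 by edgeR). The group 3 LEA protein LOC_Os05g46480, of a class of protective proteins of drying cells, went from 0.124 to 1.39 CPM to 2.97 to 7.35 CPM (2.89, SE 0.67, adjusted p = 0.0422). The salt stress-induced protein LOC_Os01g24710 went from 0.0621 to 0.696 CPM to 11.4 to 84.2 CPM (6.90, SE 1.04, adjusted p = 0.0103). Rab21 (LOC_Os11g26790), a dehydrin induced by water stress, had 3 counts in the Kitaake libraries together and 106 counts in OsbZIP62V, where it was at 1.81 to 1.98 CPM (adjusted p = 0.0116 by edgeR). It was at 0 to 0.182 CPM in Nipponbare and 1.03 to 1.98 CPM in osbzip62, and did not pass there (log2 fold change 4.19, SE 0.78, adjusted p = 0.0766). Those 2 groups did not overlap, as with osbzip62 higher for 12.8% of the genes tested. The difference between the effects was 0.57 (SE 1.30, adjusted p = 0.832). In osbzip62 against Nipponbare none of the 9 tested genes of this list passed, beside 0.422% of all genes tested. In Kitaake against Nipponbare 1 of 7 was higher and 2 were lower, beside 9.51% of all genes higher and 10.4% lower.

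Further loci of the DREB family appear in the study's lists of changed genes, and their direction is not independent evidence for the same reason. LOC_Os02g43940, annotated as similar to DREB2B, was at 3.96, 2.30 and 2.24 CPM in Kitaake and at 11.3, 9.80 and 13.8 CPM in OsbZIP62V. It rose by 2.12 on the log2 scale (SE 0.30, adjusted p = 0.00725 by edgeR). It was at 7.41, 6.20 and 2.46 CPM in Nipponbare and at 1.62, 1.57 and 1.59 CPM in osbzip62. These groups did not overlap, as with osbzip62 lower for 9.97% of the genes tested, and the log2 fold change of -1.75 did not pass (adjusted p = 0.117 by edgeR). By qPCR, the study reports higher expression of this locus in OsbZIP62V lines, and lower expression in osbzip62 mutants, than in wild type. In the counts, the difference between the effects was 3.81 (SE 0.53, adjusted p = 0.00475 by edgeR), of the opposite sign to that of the DREB1 genes. LOC_Os04g46400, annotated as similar to DREB1F, varied within its groups. It was at 6.10, 0 and 12.4 CPM in OsbZIP62V and at 15.9, 0.669 and 0.547 CPM in Nipponbare, against a single count in Kitaake, and the filter on low counts left it out of the test of OsbZIP62V against Kitaake.

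The genes whose log2 CPM followed each DREB gene most closely over the 12 libraries were ranked by Pearson's r, as a description. For the 5 DREB1 genes the 3 nearest genes each had r of 0.949 to 0.988. After removal of the group means, r was 0.360 to 0.461 for the genes nearest to DREB1A and 0.783 to 0.938 for those nearest to DREB1E. The nearest genes of DREB1B and DREB1E have no name in the sources used here. DREB1C was followed by LOC_Os07g38630, a conserved gene of no known function (r = 0.988, and 0.879 after removal of the group means), and by LOC_Os01g47580, annotated as similar to a lipid phosphate phosphatase (r = 0.968, then 0.680). DREB1G was followed by LOC_Os03g60650, a protein phosphatase of the PP2C type (r = 0.956, then 0.694). DREB1A was followed by LOC_Os03g55450, annotated with a domain of SAGA-type coactivator complexes (r = 0.976, then 0.461). Another gene without a name stood among the 3 nearest to both DREB1A and DREB1G. DREB2A was followed by LOC_Os01g42210, annotated as a lipid transfer protein-like precursor (r = 0.926, then 0.323), and LOC_Os03g51350, annotated only as an expressed protein (r = 0.925, then 0.355), both of which were at or near 0 in the Kitaake and Nipponbare libraries. For DREB2B the 3 nearest had r of 0.923 to 0.932, and 0.961 to 0.982 after removal of the group means. The points of each correlation share the libraries and their depth.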

How the data were processed

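RNA of 12 leaf libraries (TruSeq kit, which marks no strand, so that antisense and overlapping genes cannot be told apart) was trimmed by the authors with SeqPrep and Sickle and aligned with HISAT2 2.1.0. Per the submitters' notes the build was IRGSP-1.0, and HTSeq 0.6.1p2 and Bowtie2 2.2.3 were among the tools. No source used here gives the annotation release. The deposited counts are whole reads per gene, not normalized. The deposited RPKM values are those counts per length and per library total, and gave back 1 length per gene (largest relative difference 9.5e-15 over 10879 genes). The lowest chi-square per degree of freedom between replicates was 9.97, so that no library was a copy of another.

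Tests used edgeR 4.0.16 (limma 3.58.1, R 4.3.3) with TMM, the default filter on low counts (minimum 10) and Benjamini-Hochberg adjustment over all genes tested, at 0.05 with no fold minimum. Standard errors were derived from each log2 fold change and its F, and 95% intervals from these with the degrees of freedom of the fit. Log2 CPM used a prior count of 2. The test was checked on simulated data. DESeq2 1.42.0, another scaling, no filter, a fit of 12 libraries, a replicate block, a fold minimum and leaving out each library were tried. Python 3.11.15, numpy 2.4.6, pandas 2.3.3 and matplotlib 3.10.9 drew the figures.

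The table identifiers are paired with names by no reference used here (1 of 39387 entries matched). The 8 genes were named as listed for this work, and their symbols gave the chromosomes. Other loci were paired through the study's 2 lists of changed genes, which hold fold changes and p-values of the authors, by matching each listed fold change to the ratio recomputed from the counts. Only the identity of 1992 of 1998 and 1122 of 1143 loci was taken from them. Lists were counted by identifier, and 1 of the identifiers was not found. The genes named were the 8, listed genes past the threshold in a transgenic comparison where a source names them, 2 DREB-like loci, OsbZIP62 and, for each DREB gene, the 3 most alike in pattern where a source names them. The genes, lists and tests were chosen with earlier results of these data known. Intervals and floors cover the spread between these libraries or counting error only.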

Additional observations from a re-analysis of the deposited data

Results flagged for a closer look

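The effect of the overexpressor and the effect of the mutant differed for 3 DREB genes, by the test of the difference itself in the fit of all 12 libraries. Of all 21878 genes tested there, 7.10% passed and 3.25% were lower. With 1 library left out, DREB1A passed in all 12 fits, DREB1B in 9 and DREB1G in 7. The difference was -3.44 on the log2 scale for DREB1A, -4.28 for DREB1B and -4.84 for DREB1G. In each case the OsbZIP62V effect was negative (-3.01, -4.79 and -4.36), while the osbzip62 effect did not pass (0.40, -0.54 and 0.43). The mutant value was below 0 for DREB1B and above 0 for DREB1A and DREB1G. Each interval included 0 (DREB1B -2.12 to 1.05, DREB1A -0.11 to 0.91, DREB1G -1.45 to 2.31). The direction of the mutant effect was thus not determined for these 3 genes.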

How the results depend on the processing

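In OsbZIP62V against Kitaake, 5 DREB genes fell under DESeq2, RLE scaling, no filter and a fold minimum of 2. Leaving out single libraries gave 3 to 5. The fit of all 12 libraries gave 4 lower and 1 higher. In osbzip62 against Nipponbare 0 passed under every alternative run. For the difference between the effects, 3 passed under DESeq2, RLE scaling and no filter, and 1 to 3 without single libraries (1 without Kitaake replicate 2 or osbzip62 replicate 1). Of the values near 0, some changed sign when a library was left out. In osbzip62 against Nipponbare the log2 fold change of DREB1B ranged from -0.99 to 0.20, that of DREB1G from -0.10 to 1.06 (-0.0348 without osbzip62 replicate 3) and that of DREB1C from -0.52 to 0.40 (-0.32 without Nipponbare replicate 3). In Kitaake against Nipponbare DREB2B ranged from -0.12 to 0.17 (0.0086 without Kitaake replicate 1, 0.0223 without Kitaake replicate 3 and 0.0200 with no filter on low counts) and DREB2A from -0.0348 (without Kitaake replicate 2) to 0.12. The cause was not tested. Replicate numbers showed no steady pairing of the samples. The correlations of same-numbered deviations from group means were 0.15, 0.01 and -0.04 for OsbZIP62V and Kitaake, and -0.26, 0.14 and 0.38 for osbzip62 and Nipponbare. For Kitaake and Nipponbare they were 0.02, 0.08 and 0.06, small but each the highest for its replicate. The same number was also highest for replicate 1 of OsbZIP62V and Kitaake and replicate 3 of osbzip62 and Nipponbare. With the replicate block, 4 DREB genes fell in OsbZIP62V (DREB1C did not pass, adjusted p = 0.0710), 0 passed in osbzip62, 4 were higher in Kitaake than in Nipponbare (DREB1E did not pass, 0.0575) and 2 differed between the effects (DREB1G did not pass, 0.0518).

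Counts over all genes moved more. OsbZIP62V against Kitaake gave 1476 genes, 3109 with DESeq2 and 206 to 3592 without single libraries. The mutant comparison gave 86 genes, 1334 with DESeq2, 806 in the fit of all 12 libraries, 0 with the block and 0 to 605 without single libraries. Kitaake against Nipponbare gave 3940, and 1133 to 6771 without single libraries. The difference gave 1553, 3605 with DESeq2, 470 with the block and 345 to 3864 without single libraries. Outside Kitaake, DREB1B, DREB1C, DREB1E and DREB1G had 99 counts or fewer in a library, and replicates of similar depth differed widely (49, 7 and 5 counts of DREB1E in Nipponbare).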
